A study of Mus musculus with 15 samples.

Results

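The response of mouse primary hepatocytes to cAMP was described by comparing 3 libraries of cells given 100 µM cAMP for 3 h with 3 libraries of cells given vehicle, which are 6 of the 15 bulk RNA sequencing libraries of the study. Of 24347 entries in the expression table, 12703 genes reached at least 10 scaled reads in 3 or more of the 15 libraries, and all of these were tested. The other groups received 100 nM glucagon alone, or cAMP or glucagon together with interleukin-13 (IL-13), and only the 3 libraries with glucagon alone are used below. The cells of both groups compared were wild type per the labels, were isolated by collagenase digestion from mice of 8 to 10 weeks of age and cultured, and received no IL-13. The strain is not settled, because the strain label and the study's methods disagree. The agent used as vehicle and the chemical form of cAMP are not given in the sources used here. The labels do not tie the 3 libraries of a group to separate mice or cultures, so that p-values speak of differences among libraries only, and these may be technical.

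Hepatocytes take up and release glucose for the whole body. In fasting, glucagon binds its receptor on these cells and raises cAMP, which frees the catalytic subunits of protein kinase A (PKA). PKA phosphorylates the transcription factor CREB and, by restraining the salt-inducible kinases, lets the CRTC coactivators enter the nucleus, where CREB and CRTC bind cAMP response elements (CRE) and switch on early transcription factors and enzymes of gluconeogenesis, the making of new glucose from lactate, glycerol and amino acids. Added cAMP that reaches the inside of the cell acts in this pathway below the receptor. How the cAMP used here acted was not tested.

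Values are scaled reads, the estimated reads of a gene multiplied by a factor for each library, and the libraries summed to 18793300 to 19635100 of them. A gene was called where limma gave an adjusted p below 0.05 over all tested genes, and fold changes are on the scale of log2(scaled reads + 1), cAMP minus vehicle. Albumin (Alb), the main hepatocyte protein, lay between 576959 and 631120 scaled reads with cAMP and between 538991 and 606866 with vehicle. The 9 lymphocyte markers were near 0, with summed levels of 6.11 to 8.25 with cAMP and 3.80 to 7.97 with vehicle. Vehicle library a stood apart. Among 8285 genes with a mean above 200, 84 were more than 2-fold lower in it than in the other vehicle libraries, against 10 in cAMP library 2 and 1 to 4 in the others, and its differences from its mates followed transcript length (r = -0.713 across genes, which are not independent replicates). Called named genes that lose their call without it, and counts of list members that move by 2 or more, are given with and without it.

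After 3 h of cAMP, 981 genes (7.72% of those tested) were called higher and 1061 (8.35%) lower. Each count of list members below is to be read beside these shares, and a list with shares near them does not stand apart from all tested genes. The groups did not overlap for 4403 genes (34.7%). Most called changes were small, with a median absolute log2 fold change of 0.60, and large changes were more often rises. Rises of at least 2 on the log2 scale numbered 61, against 22 falls of that size, and rises of at least 3 numbered 23, against 3 falls. The median over all tested genes was 0.01. Scaling each library by its total gave 818 higher and 1374 lower genes and moved the median of all genes to -0.04. Without vehicle library a, 1447 genes were higher and 1572 lower.

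**Figure D1:**
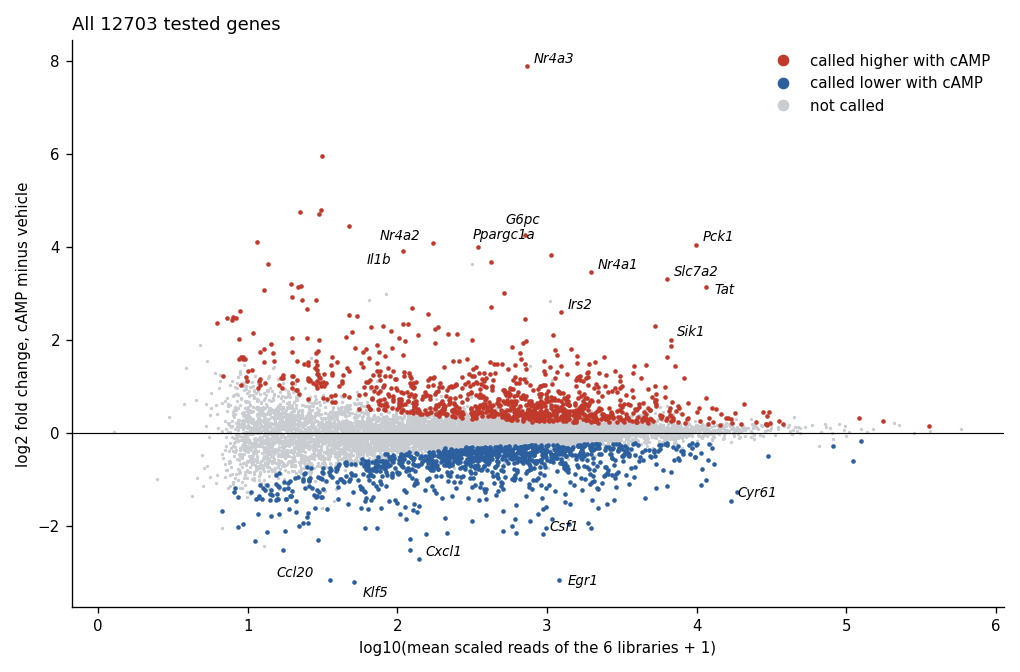
Log2 fold change (cAMP minus vehicle, vertical axis) against the mean level of the 6 libraries (log10 of scaled reads + 1, horizontal axis) for the 12703 tested genes. Red points are the 981 genes called higher with cAMP, blue points the 1061 called lower and grey points the rest, with Nr4a3 at the top (7.90) and Egr1 among the lowest (-3.16).

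The NR4A nuclear receptors, orphan receptors that bind DNA without a known natural ligand and are early targets of CREB, included the largest rise of the named genes. Nr4a3 had 1422, 1458 and 1495 scaled reads with cAMP, against 4.20, 4.78 and 6.65 with vehicle. It was at a few scaled reads in each vehicle library and far above them in each cAMP library, with a log2 fold change of 7.90 (SE 0.16, limma adjusted p = 2.3e-09). Nr4a1 had 3702, 3369 and 3727 with cAMP, against 302, 341 and 335 with vehicle (3.46, SE 0.08, limma adjusted p = 6.2e-09). Nr4a2 had 344, 336 and 290 with cAMP, against 13.6, 18.3 and 23.8 with vehicle (4.08, SE 0.19, limma adjusted p = 8.1e-07). Of the 35 nuclear receptors tested, 10 were higher (28.6%) and 3 lower (8.57%), with a median of 0.10. The share lower was near the 8.35% of all tested genes. Ppara, the receptor that drives fatty acid oxidation in fasting, had 1053, 1033 and 1060 with cAMP, against 340, 431 and 448 with vehicle (1.38). With library size scaling, that is with each library divided by its total, 10 nuclear receptors were higher and 5 lower, without vehicle library a 10 and 6, and without any 1 cAMP library or vehicle library b none was lower.

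Ppargc1a, which encodes the coactivator PGC-1α of gluconeogenic and mitochondrial genes, had 640, 613 and 689 scaled reads with cAMP, against 25.2, 45.5 and 54.2 with vehicle (3.99, SE 0.25, limma adjusted p = 2.0e-05). The related Ppargc1b had 438, 379 and 397 with cAMP, against 144, 226 and 241 with vehicle (1.02). For both genes the groups were well apart, and vehicle library a was the lowest. Hnf4a, the nuclear receptor that maintains hepatocyte identity, had 6670, 6439 and 6401 with cAMP, against 3714, 4660 and 4374 with vehicle (0.62, SE 0.08, limma adjusted p = 0.00073). Foxo1, the factor that insulin excludes from the nucleus, had 724, 755 and 769 with cAMP, against 537, 620 and 684 with vehicle, and did not pass the test (0.29, limma adjusted p = 0.073), although it passed without vehicle library c (0.38, limma adjusted p = 0.039).

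CRE letters were looked for in the promoters of these genes. RefSeq windows from 250 bases before to 50 after a start (GRCm38.p6) were found by symbol for 10152 of the 12703 tested genes (79.9%), but for 44 of the 61 genes that rose by 2 or more (72.1%), so that shares of motifs were not compared between classes of genes. The short element TGACG, read on either strand, is in 6837 of all 32851 windows (20.8%), and the full palindrome TGACGTCA, which contains it, in 588 (1.79%). Of the 15 largest rises named below, 12 had a window, and 6 of those held the short element (Nr4a3, Nr4a2, Nr4a1, Pck1, Ppargc1a and Klf4), while Etnppl, G6pc, Il1b, Irs2, Socs3 and Tat did not. Of the 15 largest falls, 7 had a window and 3 held the element (Cxcl1, Fgd3 and Tsc22d1). Both counts take any window of a gene, whereas the 20.8% is a share of windows. Counted by gene in any window, 35.3% of the 8538 matched genes not called held the element, and no comparison is drawn. The 250 bases before the start are printed 5′ to 3′ along the gene for 6 genes, in lower case with TGACG and its reverse complement in capitals. They were chosen to show the promoters of the NR4A receptors, of Pck1 and of Ppargc1a, and a full palindrome (Slc25a25, chosen after its values were seen). The window of Slc25a25 was picked because it holds the palindrome, and for the others the first window was taken. For Nr4a3 only the first 98 bases are shown, because GENCODE (vM21) places an exon in the other 152. Other starts are annotated for some of these genes, and the starts used for Nr4a3, Nr4a1 and Ppargc1a lie within the span of the gene. The span of Nr4a3 begins at 48045078, within the stretch shown.
Nr4a3 (chr4:48045055-48045152, plus strand): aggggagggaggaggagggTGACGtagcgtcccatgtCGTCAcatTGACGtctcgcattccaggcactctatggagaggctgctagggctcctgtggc
Nr4a1 (chr15:101266596-101266845, plus strand): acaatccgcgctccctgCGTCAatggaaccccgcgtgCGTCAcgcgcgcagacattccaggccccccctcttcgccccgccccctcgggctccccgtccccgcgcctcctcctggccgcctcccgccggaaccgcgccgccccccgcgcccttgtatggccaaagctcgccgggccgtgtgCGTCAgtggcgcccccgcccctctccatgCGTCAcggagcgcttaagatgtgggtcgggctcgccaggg
Nr4a2 (chr2:57124004-57124253, minus strand): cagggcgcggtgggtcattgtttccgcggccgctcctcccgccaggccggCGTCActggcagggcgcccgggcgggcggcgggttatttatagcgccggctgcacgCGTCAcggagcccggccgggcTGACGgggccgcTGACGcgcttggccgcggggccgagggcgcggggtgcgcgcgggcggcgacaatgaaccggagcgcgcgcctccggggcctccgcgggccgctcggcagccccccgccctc
Pck1 (chr2:173152823-173153072, plus strand): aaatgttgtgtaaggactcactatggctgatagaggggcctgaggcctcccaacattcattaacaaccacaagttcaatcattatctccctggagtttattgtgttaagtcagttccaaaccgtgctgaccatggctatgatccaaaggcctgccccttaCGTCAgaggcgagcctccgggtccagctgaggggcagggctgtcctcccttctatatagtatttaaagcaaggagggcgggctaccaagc
Ppargc1a (chr5:51567726-51567975, minus strand): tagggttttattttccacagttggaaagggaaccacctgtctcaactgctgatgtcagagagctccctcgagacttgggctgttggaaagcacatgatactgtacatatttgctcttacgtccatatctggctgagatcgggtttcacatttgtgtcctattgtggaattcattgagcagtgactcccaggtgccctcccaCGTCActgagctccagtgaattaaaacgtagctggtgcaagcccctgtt
Slc25a25 (chr2:32424067-32424316, minus strand): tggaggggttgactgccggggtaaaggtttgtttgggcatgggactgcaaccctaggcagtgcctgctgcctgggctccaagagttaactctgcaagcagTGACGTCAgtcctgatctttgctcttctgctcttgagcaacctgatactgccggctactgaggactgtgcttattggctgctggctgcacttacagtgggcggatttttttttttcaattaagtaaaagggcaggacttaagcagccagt
A match of letters is a description and not a measured binding site.

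Nr4a3, Nr4a1 and Nr4a2 have 4 matches each in the 250 bases. In Nr4a3, where the stretch shown holds 3 of them, they begin 231, 213, 205 and 147 bases before the start, and in Nr4a1 at 233, 213, 69 and 40 bases. The single match of Pck1 begins 90 bases before the start and that of Ppargc1a 49 bases. Slc25a25, which encodes a mitochondrial carrier of ATP-Mg and phosphate, had 8911, 8413 and 9055 scaled reads with cAMP, against 1635, 1841 and 1889 with vehicle (2.30, SE 0.07, limma adjusted p = 6.0e-08), and its palindrome begins 150 bases before the start printed.

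Transcripts of the receptor and of most PKA subunits did not pass the test. The glucagon receptor Gcgr had 2642, 2364 and 2545 scaled reads with cAMP, against 2364, 2403 and 2124 with vehicle (0.13, limma adjusted p = 0.30). The catalytic PKA subunits Prkaca (-0.04, limma adjusted p = 0.77) and Prkacb (-0.02) and the regulatory subunit Prkar2a (0.18) did not pass. The regulatory subunit Prkar1a, which binds cAMP and holds the catalytic subunits inactive, had 5028, 5170 and 5069 with cAMP, against 4431, 4089 and 4172 with vehicle (0.27, limma adjusted p = 0.015), a call lost without vehicle library b (limma adjusted p = 0.052) or any 1 cAMP library (0.059 to 0.074). Of 23 tested genes of cAMP production and PKA, 4 were higher (17.4%) and 1 lower (4.35%, 2 genes without vehicle library a). Of all tested genes 7.72% and 8.35% were. The median of the list was 0.13.

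The members of this group that moved were a cyclase, an anchor and the cAMP-binding exchange factors. Adcy9, an adenylyl cyclase, had 1364, 1405 and 1450 with cAMP, against 361, 545 and 551 with vehicle (1.56). Akap12, which anchors PKA at the membrane, had 673, 628 and 651 with cAMP, against 182, 241 and 287 with vehicle (1.48). Rapgef4 (Epac2), a PKA-independent cAMP sensor, had 1620, 1706 and 1593 with cAMP, against 859, 981 and 1070 with vehicle (0.76). Its relative Rapgef3 (Epac1) went the other way, with 5.09, 5.89 and 5.37 with cAMP, against 19.9, 23.9 and 20.0 with vehicle (-1.78, limma adjusted p = 0.0015), at a low level in all libraries.

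Phosphodiesterases, which break down cAMP or cGMP, were higher for 6 of 16 tested genes and lower for none, with a median of 0.15. Pde4d, a cAMP-specific enzyme, had 1203, 1229 and 1183 scaled reads with cAMP, against 198, 223 and 238 with vehicle (2.45, SE 0.09, limma adjusted p = 1.3e-07). Pde4b had 496, 486 and 486 with cAMP, against 228, 223 and 255 with vehicle (1.06). Pde10a had 346, 381 and 410 with cAMP, against 99.7, 126 and 170 with vehicle (1.55). In each of these the lowest cAMP library was well above the highest vehicle library. Pde3a rose by 1.59 at only 9.84 to 17.7 scaled reads with cAMP and 2.10 to 5.58 with vehicle, which did not pass once cAMP library 1 or 2 or vehicle library c was left out (limma adjusted p = 0.079, 0.095 and 0.059).

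Among CREB, CRTC and salt-inducible kinase genes, 6 of 21 were higher and 1 lower, with a median of 0.11. Without vehicle library a the counts were 6 higher and 4 lower and the median -0.05, without vehicle library b 6 and 2, and with library size scaling 5 and 3. Sik1, the inducible member of the kinases that phosphorylate and hold back CRTC, had 10880, 9869 and 11419 scaled reads with cAMP, against 2310, 2939 and 2784 with vehicle (2.01, SE 0.10, limma adjusted p = 9.8e-07). Crem, whose inducible product ICER represses CRE-driven genes, had 1116, 1230 and 1097 with cAMP, against 326, 262 and 286 with vehicle (1.98). Both genes are known for inhibitors that the pathway itself induces. Sik3 had 2804, 2699 and 2892 with cAMP, against 1132, 1806 and 1718 with vehicle (0.88), and Sik2 did not pass (0.42, limma adjusted p = 0.29), its vehicle value in library a being 257 against 455 and 488 in the other vehicle libraries.

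Creb1 and its coactivator genes were not called in the main fit, that of all 6 libraries with the deposited scaling. Creb1 had 434, 448 and 402 with cAMP, against 477, 514 and 594 with vehicle (-0.30, limma adjusted p = 0.078), and it was called lower without vehicle library a (-0.37, limma adjusted p = 0.011) or with scaling by library size (-0.35, limma adjusted p = 0.041). Crtc1 (-0.07), Crtc2 (-0.10) and Crtc3 (-0.35) did not pass, and Crtc3 was called lower without vehicle library a (-0.51, limma adjusted p = 0.00086). Hdac4, a class IIa deacetylase that the salt-inducible kinases phosphorylate, rose by 1.30, with 617, 612 and 662 with cAMP, against 153, 330 and 332 with vehicle, a call lost without any 1 cAMP library (limma adjusted p = 0.079 to 0.10). Hdac7 fell by 1.53, with 74.4, 51.8 and 71.5 with cAMP, against 168, 222 and 183 with vehicle.

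Gluconeogenic enzymes divided into a few genes that rose strongly and many that did not pass the test. G6pc, the glucose-6-phosphatase that releases free glucose (chromosome 11, 101367716 to 101377903), had 1347, 1352 and 1370 scaled reads with cAMP, against 76.6, 67.0 and 67.5 with vehicle. Its mean was 19.3-fold higher with cAMP (log2 fold change 4.25, SE 0.09, limma adjusted p = 3.6e-09). Pck1, the cytosolic phosphoenolpyruvate carboxykinase (chromosome 2, 173153073 to 173159274), had 18718, 18026 and 18769 with cAMP, against 1142, 1192 and 1015 with vehicle, a 16.6-fold higher mean (4.05, SE 0.07, limma adjusted p = 1.2e-09).

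Other enzymes of the path, given here, were not called in the main fit. The mitochondrial carboxykinase Pck2 had 1949, 1858 and 1976 with cAMP, against 2194, 2214 and 2117 with vehicle, and did not pass (-0.17, limma adjusted p = 0.11), although it was called lower with scaling by library size (-0.23, limma adjusted p = 0.042). Fbp1, fructose-1,6-bisphosphatase, had 6469, 6448 and 6289 with cAMP, against 5992, 5368 and 4563 with vehicle (0.28, limma adjusted p = 0.070), and passed without vehicle library a (0.37, limma adjusted p = 0.0012). Pcx, pyruvate carboxylase, overlapped between the groups (0.17, limma adjusted p = 0.21), and passed without vehicle library b (0.25, limma adjusted p = 0.045). The ubiquitous phosphatase G6pc3 (-0.04) and the glucose-6-phosphate transporter Slc37a4 (0.02) did not pass. Of 19 tested genes, 6 were higher and none lower, with a median of 0.18, and without vehicle library a 12 were higher. With library size scaling 5 were higher and 1 lower.

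Genes of pyruvate and glycolytic control moved at several steps. Pdk4, the kinase that shuts pyruvate dehydrogenase in fasting, had 2186, 2253 and 2325 scaled reads with cAMP, against 619, 639 and 670 with vehicle (1.81, SE 0.07, limma adjusted p = 2.2e-07). Slc16a10, an aromatic amino acid carrier of the lactate transporter family, rose by 1.17, Gpd2, the mitochondrial glycerol-3-phosphate dehydrogenase, by 0.63, and the phosphatase gene Pdp2, which acts against the pyruvate dehydrogenase kinases, by 0.62. Of 22 genes of pyruvate, lactate and glycerol entry, 8 were higher and 1 (Aqp9, the glycerol channel) lower, with a median of 0.18, with 5 higher without any 1 cAMP library and 12 without vehicle library a. Pdp2 did not pass without cAMP library 1 or 2 (limma adjusted p = 0.070 and 0.054). In the list of glucose uptake and glycolytic control, 1 of 21 was higher (4.76%) and 3 lower (14.3%), or 2 and 4 without vehicle library a. Txnip, a glucose-responsive inhibitor of glucose uptake, fell by 0.81 and Hk2, a hexokinase, by 0.54, although Hk2 did not pass without cAMP library 1 or 2 or vehicle library b or c (limma adjusted p = 0.057 to 0.063). Pfkfb2, which makes or removes the glycolytic activator fructose-2,6-bisphosphate, rose by 1.03.

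In amino acid breakdown and the urea cycle, 16 of 41 tested genes were higher (20 without vehicle library a) and none lower, with a median of 0.15. Tat, the first enzyme of tyrosine breakdown, had 21042, 20229 and 20493 scaled reads with cAMP, against 2295, 2408 and 2297 with vehicle (3.14, SE 0.06, limma adjusted p = 1.2e-09). Got1, the cytosolic aspartate aminotransferase, had 10657, 10524 and 10593 with cAMP, against 3036, 2814 and 2889 with vehicle (1.86, SE 0.06, limma adjusted p = 6.0e-08). Both groups were tight for these genes. Slc25a15, the mitochondrial ornithine carrier of the urea cycle, rose by 1.48, and Hal, which begins histidine breakdown, by 1.27. Cps1, the entry enzyme of the urea cycle, had 5264, 5770 and 5599 with cAMP, against 3435, 4267 and 3799 with vehicle (0.54).

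Etnppl, an enzyme that breaks down phosphoethanolamine, had 2061, 1936 and 1994 scaled reads with cAMP, against 139, 160 and 121 with vehicle (3.84, SE 0.11, limma adjusted p = 2.7e-08). Slc7a2, which imports arginine and other cationic amino acids, had 11145, 12031 and 11395 with cAMP, against 968, 1278 and 1283 with vehicle (3.30, SE 0.11, limma adjusted p = 8.6e-08). Of 29 amino acid transporters tested, 5 were higher (17.2%) and 2 lower (6.90%), with a median of 0.13, against 7.72% and 8.35% of all tested genes. With library size scaling the balance turned, with 3 higher and 4 lower. Called in all were 3 or 4 without any 1 cAMP library or without vehicle library b or c, and without vehicle library a 5 were higher and 5 lower. Slc7a5, the large neutral amino acid transporter that growth signals raise, fell by 0.73, with 1208, 1250 and 1137 with cAMP, against 1711, 2160 and 2135 with vehicle. Slc38a9 (0.42), a lysosomal arginine sensor, did not pass once any 1 library other than vehicle a was left out (limma adjusted p = 0.051 to 0.13), nor did Slc7a8 (0.62), a neutral amino acid exchanger, without cAMP library 1 or 3 or any 1 vehicle library (limma adjusted p = 0.051 to 0.16).

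Genes of the insulin and IGF axis were higher for 5 (17.2%) and lower for 3 (10.3%) of 29, against 7.72% and 8.35% of all tested genes. The median was 0.13. The counts were 7 higher and 5 lower without vehicle library a and 4 of each with library size scaling. Irs2, the main insulin receptor substrate of the fasted liver, had 2111, 2004 and 2256 scaled reads with cAMP, against 220, 432 and 448 with vehicle (2.60, SE 0.27, limma adjusted p = 0.00096). Irs1 had 273, 310 and 289 with cAMP, against 40.9, 71.0 and 76.0 with vehicle (2.24). In both, vehicle library a was the lowest library. The adaptor gene Grb7 rose by 1.16. Pik3r1, the regulatory subunit of phosphoinositide 3-kinase, had 1784, 1817 and 1804 with cAMP, against 2795, 3413 and 3772 with vehicle (-0.87).

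Among lipid genes, Cpt1a, which admits fatty acids to mitochondria, had 2612, 2664 and 2611 scaled reads with cAMP, against 945, 1132 and 1141 with vehicle (1.30, limma adjusted p = 5.8e-06). Of 28 genes of fatty acid oxidation and ketone bodies, 7 were higher (25.0%) and 1 lower (3.57%), the share lower being under the 8.35% of all tested genes. None was lower once any 1 library other than vehicle a was left out, and 5 were higher without cAMP library 1 or 3. In lipid droplets, lipins and lipoproteins, 8 of 30 were higher (26.7%) and 2 lower (6.67%), again under that share. Without cAMP library 1 or 3, 5 and 4 were higher, and without vehicle library a, 4 were lower. Apoa5, which promotes clearance of triglycerides from blood, had 6940, 6401 and 6789 with cAMP, against 2617, 2681 and 2086 with vehicle (1.45). Lpin1, a phosphatidate phosphatase that also acts as a coactivator, rose by 1.19 and Lpin2 by 0.47. G0s2, which inhibits the lipase ATGL, had 354, 264 and 338 with cAMP, against 608, 636 and 620 with vehicle (-0.97).

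Genes of fatty acid and cholesterol synthesis were higher for 7 of 30 and lower for none (1 without vehicle library a or with library size scaling), with a median of 0.11. Acacb, the mitochondrial acetyl-CoA carboxylase, rose by 0.96, but not without cAMP library 1 or 3 (limma adjusted p = 0.063 and 0.065). Elovl6 (0.78), Insig1 (0.71) and Sqle (0.66), which elongate fatty acids, retain the sterol sensor and oxidise squalene, rose too. Of 24 genes of bile acids and sterol export, 4 were higher (16.7%) and 1 lower (4.17%), against 7.72% and 8.35% of all tested genes. Without vehicle library a, 7 were higher, without cAMP library 2 or 3, 3 were, and the fall passed only with all 6 libraries or without vehicle library a. They included the sterol exporters Abcg5 (1.20) and Abcg8 (0.99), a divergent gene pair, the sterol hydroxylase Cyp8b1 (1.07) and the bilirubin exporter Abcc2 (0.54), whose call did not hold without cAMP library 2 or 3 (limma adjusted p = 0.058 and 0.052). In methionine, folate and NAD metabolism, 5 of 25 were higher and none lower. Sirt1, the NAD-dependent deacetylase, had 716, 899 and 837 with cAMP, against 338, 360 and 413 with vehicle (1.14), Nnmt, which uses up nicotinamide, rose by 0.78, Cbs by 0.69 and Mat1a by 0.55.

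Hepatokines and the activin axis had 9 higher and 4 lower of 30 tested (12 and 6 without vehicle library a), with a median of 0.21. Klb, the coreceptor for the fasting hormone FGF21, had 175, 194 and 168 scaled reads with cAMP, against 36.7, 54.2 and 45.6 with vehicle (1.97, limma adjusted p = 2.3e-05), and Fgfr2 rose by 1.27. Angptl4, a secreted inhibitor of lipoprotein lipase, had 234, 203 and 249 with cAMP, against 974, 1042 and 1021 with vehicle (-2.15, SE 0.10, limma adjusted p = 5.3e-07). Inhbe, the liver activin subunit, fell by 1.12.

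**Figure D2:**
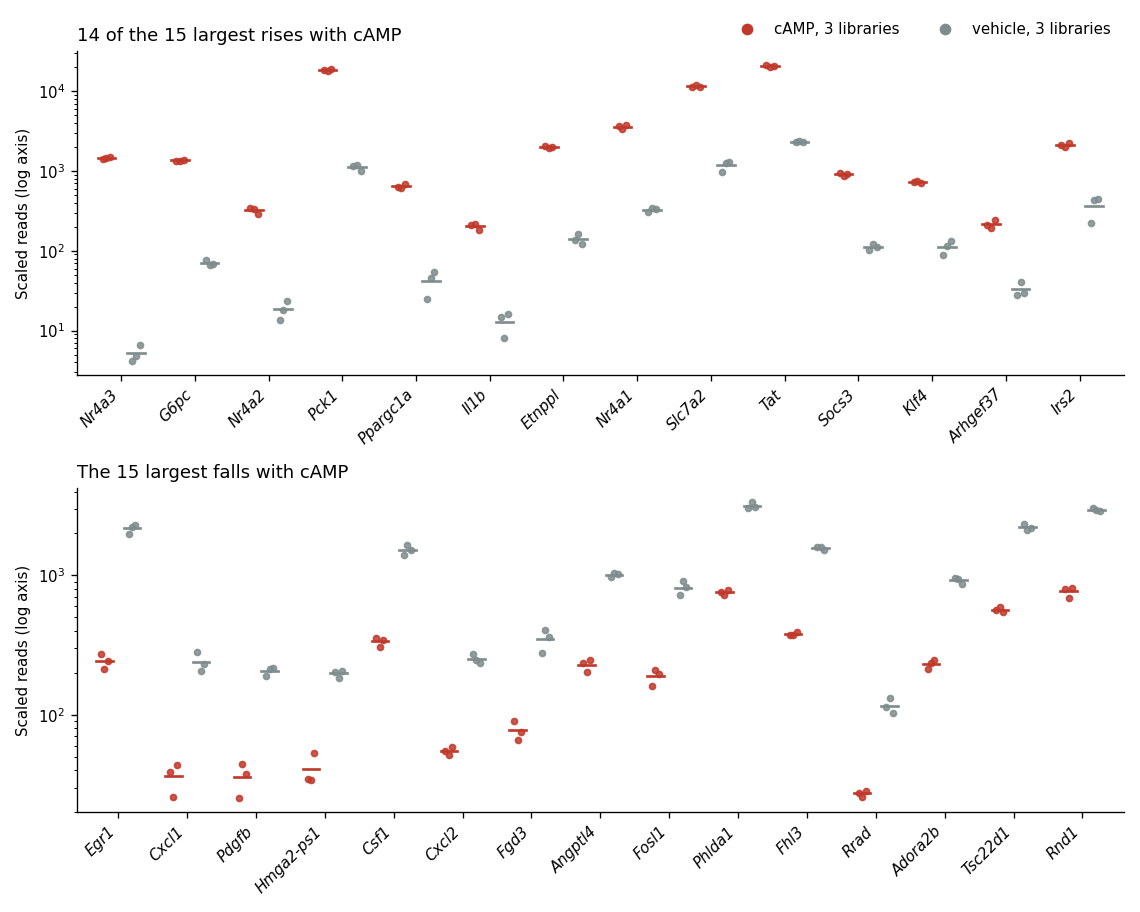
Scaled reads (log axis) in each library for 14 of the 15 largest rises (upper panel) and 15 largest falls (lower panel) among called genes of at least 100 scaled reads in the higher group. Red points are the 3 cAMP libraries and grey points the 3 vehicle libraries, with bars at the means. Lack of overlap between the groups was part of the rule that chose these genes, and 34.7% of all tested genes lacked it. Hmga2-ps1 is a pseudogene copy of Hmga2, so that its value is uncertain.

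Immediate early factors split. Of 26 AP-1, EGR and related factors, 7 were higher and 14 lower, with a median of -0.28. Egr1, which growth factors and ERK signalling induce, had 274, 212 and 245 scaled reads with cAMP, against 1990, 2235 and 2302 with vehicle, an 8.93-fold lower mean (-3.16, SE 0.11, limma adjusted p = 8.6e-08). Fosl1, an AP-1 subunit downstream of ERK, had 161, 211 and 195 with cAMP, against 721, 905 and 832 with vehicle (-2.11). Id1 fell by 1.86 and Ier2 by 1.63. The 7 rises (Fosl2, Fosb, Id2, Zfp36l2, Btg1, Junb and Jund) include AP-1 subunits as well, and Fosb had 234, 218 and 237 with cAMP, against 118, 95.7 and 89.3 with vehicle (1.19, named after its values were seen).

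C/EBP and Kruppel-like factors had 5 higher and 4 lower of 20 (7 lower without vehicle library a). Klf4 had 720, 752 and 708 with cAMP, against 88.2, 114 and 131 with vehicle (2.72, SE 0.14, limma adjusted p = 1.1e-06). Klf15, which drives amino acid breakdown in fasting, had 284, 289 and 277 with cAMP, against 66.1, 81.3 and 72.2 with vehicle (1.94). Klf5 went down, with 7.13, 8.25 and 11.6 with cAMP, against 65.1, 102 and 107 with vehicle (-3.20, SE 0.26, limma adjusted p = 2.3e-05), and Klf6 fell by 1.44. Clock genes had 6 higher (25.0%) and 2 lower (8.33%) of 24, the share lower being near the 8.35% of all tested genes. The counts were 4 and 1 without cAMP library 1, and 6 and 1 without vehicle library c. The repressor genes Cry2 (0.85) and Cry1 (0.50) rose. The activator gene Rora rose by 0.50, which did not pass without cAMP library 1 or 2 or vehicle library b (limma adjusted p = 0.074 to 0.12). The repressor gene Ciart (-0.51) fell, but not with vehicle library c left out (limma adjusted p = 0.058).

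Feedback regulators of kinase and cytokine signalling had 7 higher and 14 lower of 40, with a median of -0.21. Socs3, the inhibitor of IL-6 family and leptin signalling, had 941, 873 and 927 scaled reads with cAMP, against 104, 123 and 110 with vehicle (3.02, SE 0.10, limma adjusted p = 6.0e-08). Of its family, Cish rose as well (0.63) and Socs5 fell by 1.44, both named after their values were seen. Socs2, a growth hormone feedback gene, had 274, 249 and 268 with cAMP, against 1059, 853 and 941 with vehicle (-1.84), and Socs1, which restrains interferon signalling, had 14.3, 9.43 and 8.94 with cAMP, against 35.7, 35.9 and 40.9 with vehicle (-1.72). Rgs2, which quenches Gq-coupled receptors, rose by 2.07. Phlda1, an ERK-responsive gene, had 758, 729 and 785 with cAMP, against 3039, 3339 and 3081 with vehicle (-2.06, SE 0.07, limma adjusted p = 1.1e-07).

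Chemokines, cytokines and NF-kB targets were lower for 21 and higher for 4 of 39 tested genes, with a median of -0.48, the lowest of the lists that do not mark a cell type. Cxcl1, a neutrophil chemokine, had 38.7, 25.9 and 43.8 scaled reads with cAMP, against 282, 207 and 231 with vehicle (-2.72, SE 0.20, limma adjusted p = 1.4e-05). Its neighbour Cxcl2 had 55.0, 51.9 and 59.0 with cAMP, against 274, 248 and 236 with vehicle (-2.17). Ccl20 had 6.11, 7.07 and 5.37 with cAMP, against 65.1, 62.2 and 61.8 with vehicle (-3.16). Csf1, the macrophage growth factor, had 359, 309 and 345 with cAMP, against 1408, 1653 and 1521 with vehicle (-2.17, SE 0.09, limma adjusted p = 3.5e-07).

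Il1b, the inflammatory cytokine that activated macrophages release, went against this list. It had 211, 218 and 181 scaled reads with cAMP, against 14.7, 7.97 and 16.2 with vehicle, a 15.7-fold higher mean (3.92, SE 0.24, limma adjusted p = 4.0e-06). Il11, Il33 and Bcl3 were the other members that rose. Ccl3, a chemokine best known from macrophages, was lower, with 9.17, 7.07 and 10.7 with cAMP, against 57.7, 39.1 and 47.5 with vehicle (-2.30). Kupffer cells are the macrophages of the liver, and their markers were present in both groups, with summed levels of 6396 to 7045 with cAMP and 6304 to 6584 with vehicle, and none of the 13 tested was called. None of their defining markers was at 0. Clec4f, for example, had 112 to 125 with cAMP and 95.0 to 132 with vehicle. The part of these cells in the cytokine values was not tested, and in bulk libraries fewer cells of a type and less RNA per cell cannot be told apart.

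Targets of SRF, actin dynamics and YAP were lower for 16 and higher for 1 of 30 tested, with a median of -0.39, and lower for 21 without vehicle library a. Cyr61, a secreted matrix protein and YAP target, had 9103, 9044 and 8942 scaled reads with cAMP, against 24896, 24264 and 25401 with vehicle (-1.46, SE 0.05, limma adjusted p = 1.1e-07). Rnd1, a small GTPase that opposes stress fibres, had 804, 694 and 817 with cAMP, against 3038, 2944 and 2883 with vehicle (-1.94, SE 0.08, limma adjusted p = 3.2e-07). Ajuba fell by 1.44 and Fjx1 by 1.61. The single rise, which did not pass without cAMP library 1 or 3, was Lats2, the kinase that restrains YAP and is itself a YAP target. Fhl3, a LIM-domain protein, had 377, 376 and 391 with cAMP, against 1609, 1612 and 1523 with vehicle (-2.05). Tsc22d1 (-1.97), Fgd3 (-2.15), an exchange factor for Cdc42, and Rrad (-2.04), a small GTPase, were among the largest falls as well.

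Growth factors and their receptors had 7 higher and 7 lower of 31. Without 1 cAMP library, 2 to 4 were higher and 5 or 6 lower, and without vehicle library a, 10 were higher and 10 lower. Pdgfb had 25.5, 44.8 and 37.6 scaled reads with cAMP, against 190, 215 and 216 with vehicle (-2.53, SE 0.20, limma adjusted p = 1.7e-05). Hbegf, an EGF receptor ligand, fell by 0.97, while Tgfb3 (1.55) and the EGF receptor ligand Ereg (1.17) rose at low levels, Ereg losing its call without cAMP library 2 or 3 (limma adjusted p = 0.064 and 0.085). Receptors for other hormones and lipids were lower for 8 (38.1%) and higher for 2 (9.52%) of 21, the share higher being near the 7.72% of all tested genes. With the correction for transcript length they were lower for 8 and higher for 6. Adora2b, an adenosine receptor that itself raises cAMP, had 213, 236 and 246 with cAMP, against 955, 946 and 874 with vehicle (-2.00, SE 0.09, limma adjusted p = 5.4e-07). Ptger4, the prostaglandin receptor coupled to cAMP production, had 3.06, 2.36 and 2.68 with cAMP, against 18.9, 13.6 and 20.9 with vehicle (-2.33). Adra2a, an adrenergic receptor that lowers cAMP, rose, with 32.6, 25.9 and 42.9 with cAMP, against 4.20, 3.99 and 0.95 with vehicle (3.21), and S1pr3 rose by 1.27.

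Clotting genes had 4 higher and 4 lower of 29 (13.8% each), against 7.72% and 8.35% of all tested genes. The counts were 12 and 4 without vehicle library a. Thbd, thrombomodulin, had 344, 341 and 381 scaled reads with cAMP, against 71.4, 82.9 and 87.4 with vehicle (2.13, SE 0.12, limma adjusted p = 1.6e-06). Procr, the endothelial protein C receptor, had 434, 372 and 417 with cAMP, against 85.0, 86.9 and 105 with vehicle (2.13, SE 0.12, limma adjusted p = 1.9e-06). F3, tissue factor, had 2419, 2591 and 2440 with cAMP, against 6996, 6015 and 6700 with vehicle (-1.40). Plau, the urokinase, fell by 1.09. Thbd and Procr are best known from endothelium, and of 12 markers of sinusoidal endothelial cells 2 were higher (Lyve1 by 0.68 and Cdh5 by 0.51) and 2 lower (Fcgr2b, -0.67, and Kdr, -0.54). Without cAMP library 1 or 3, 1 was higher and 1 lower, Cdh5 not passing (limma adjusted p = 0.059 and 0.055), and Kdr passed in no fit that left out 1 library other than vehicle a (limma adjusted p = 0.084 to 0.14). The markers had summed levels of 2506 to 2644 with cAMP and 1985 to 2522 with vehicle. The defining marker Stab2 had 166 to 188 with cAMP and 137 to 199 with vehicle, and the part of these cells in the Thbd and Procr values was not tested.

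Unfolded protein and amino acid stress genes had 3 higher and 9 lower of 30 (6 and 10 without vehicle library a). Ddit3 (CHOP) had 969, 919 and 1077 scaled reads with cAMP, against 1859, 1697 and 1752 with vehicle (-0.84), and Trib3, its target, fell by 0.77, while the sensor kinase gene Eif2ak3 (PERK) had 3241, 3292 and 3381 with cAMP, against 1515, 1917 and 2006 with vehicle (0.88). Dnajb9 rose by 0.63. Of 34 growth arrest and survival genes, 9 were higher and 10 lower (10 and 12 without vehicle library a). Gadd45a had 1061, 1075 and 1108 with cAMP, against 3655, 3034 and 3290 with vehicle (-1.62), and the kinase genes Plk3 (1.45) and Plk2 (-1.54) went in opposite directions. The cell cycle inhibitor Cdkn2b fell by 1.83. Autophagy and lysosome genes had 7 higher (22.6%) and 2 lower (6.45%) of 31. The counts were 14 and 2 without vehicle library a, 4 and 1 without cAMP library 1, and 4 and 2 without cAMP library 3. The initiating kinase Ulk1 rose by 0.83 and its partner Atg13 by 0.48, while the factors Tfe3 (-0.56) and Tfeb (-0.67), which drive lysosomal genes, fell, although Tfeb did not pass without cAMP library 1 (limma adjusted p = 0.055).

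Genes of the basic machinery had no calls in the main fit. None of 82 cytosolic ribosomal protein genes and none of 61 respiratory chain and ATP synthase subunit genes was called by limma, with medians of 0.05 and 0.09 (-0.01 and 0.04 with library size scaling). Without vehicle library a, 15 and 19 of them were called higher, and 1 ribosomal gene was called lower without vehicle library b or with library size scaling. The correction for transcript length gave 3 respiratory genes higher, and 1 ribosomal gene higher and 1 lower. Of the 12 hepatocyte markers, Tat, Hnf4a and Cps1 rose and none fell (7 rose without vehicle library a). Stellate cell markers had no call among 10 tested, with summed levels of 785 to 826 with cAMP and 659 to 874 with vehicle. Of 4 tested cholangiocyte markers, Krt19 (-0.97, at 10.2 to 16.5 scaled reads with cAMP and 19.1 to 30.4 with vehicle) was 1 of 2 that fell, and it did not pass without cAMP library 1 or 3 or vehicle library a or c (limma adjusted p = 0.077 to 0.16). The group total of these markers lay at 12871 to 13317 with cAMP and 14118 to 15221 with vehicle. Most of that total was Spp1, which was not called, at 11714 to 12213 with cAMP and 12559 to 13916 with vehicle. Krt7 (0 to 2.04 with cAMP and 0.95 to 1.59 with vehicle), Epcam, Cftr and Tspan8 were below the filter.

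**Figure D3:**
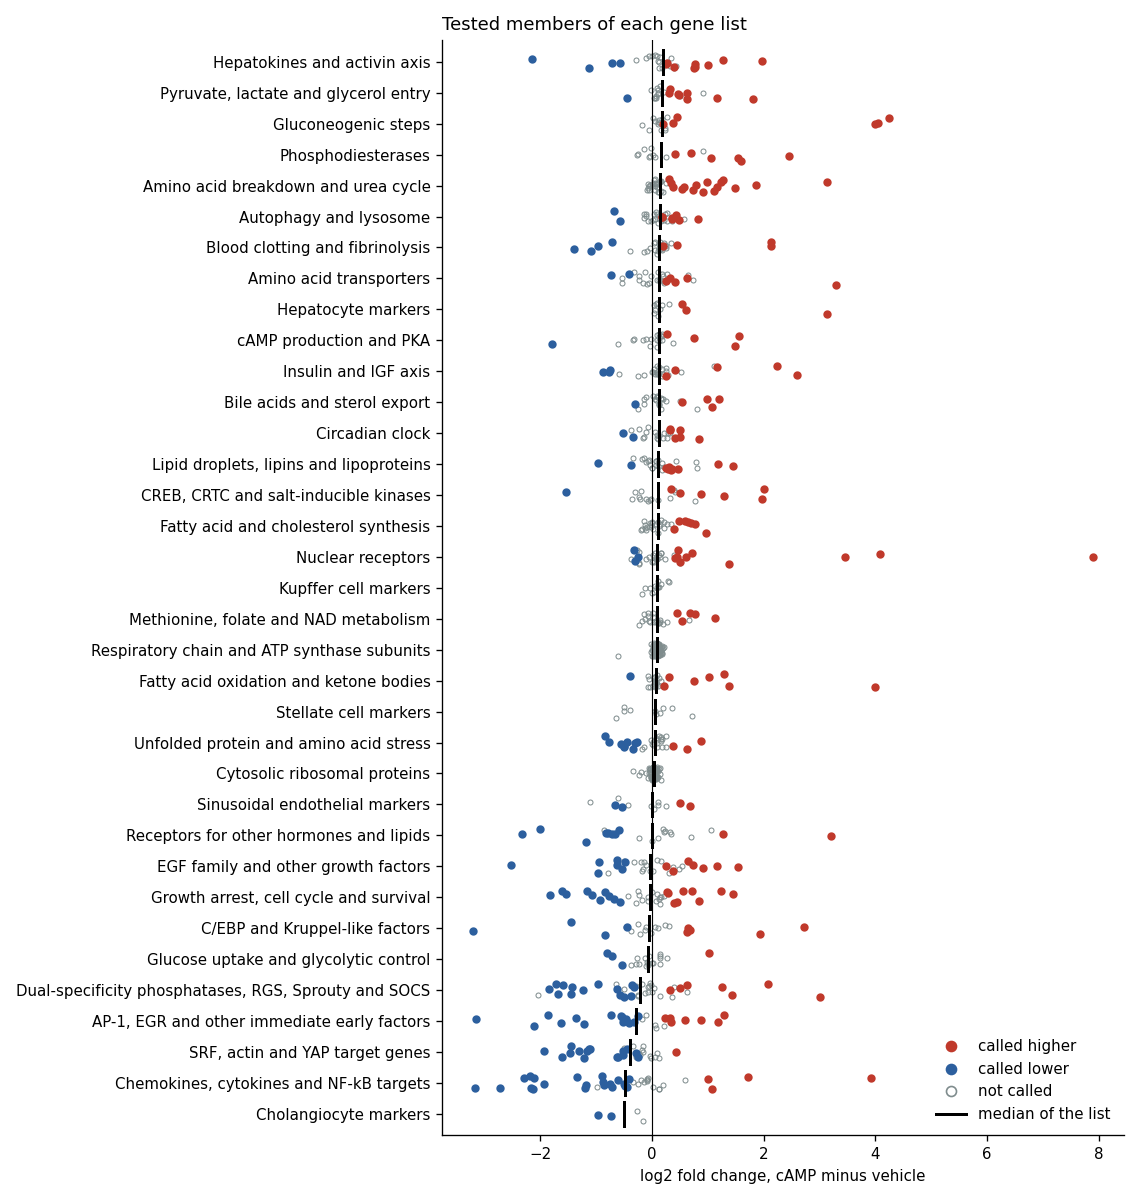
Log2 fold change (cAMP minus vehicle, horizontal axis) of every tested member of each gene list, ordered by the median of the list (black bar). Red points are members called higher with cAMP, blue points members called lower and open points those not called, with chemokines and SRF targets near the bottom (medians -0.48 and -0.39) and the ribosomal and respiratory lists mostly close to 0.

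Added cAMP was then compared directly with glucagon, the hormone that raises cAMP through its receptor, for the named genes. Over all tested genes 4.57% differed between the 3 cAMP and the 3 glucagon libraries. Of the 146 named genes 75 differed, but they were chosen on the cAMP libraries that both comparisons share, and nothing is read from this count. The doses were 100 µM cAMP and 100 nM glucagon, so that agent and dose cannot be told apart. Pck1 had 18718, 18026 and 18769 scaled reads with cAMP, against 8136, 8188 and 8339 with glucagon (1.17, limma adjusted p = 1.8e-09). G6pc had 1347, 1352 and 1370 with cAMP, against 620, 607 and 602 with glucagon (1.15, limma adjusted p = 8.2e-08). For both genes the glucagon libraries lay between those with cAMP and those with vehicle. Socs3 (1.13) and Tat (0.80) showed the same order, while Nr4a3 (0.38, limma adjusted p = 0.0027) and Ppargc1a (0.36, limma adjusted p = 0.024) were higher with cAMP than with glucagon by less.

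For some genes the glucagon libraries were near those with vehicle. Il1b had 211, 218 and 181 with cAMP, against 9.78, 21.1 and 19.6 with glucagon (3.58, limma adjusted p = 2.0e-06), which overlaps the vehicle range of 7.97 to 16.2. Thbd had 344, 341 and 381 with cAMP, against 89.1, 81.0 and 87.8 with glucagon (2.03, limma adjusted p = 8.2e-08). Akap12 (1.42) and Rgs2 (1.73) were likewise higher than with glucagon, while Ccl3 (-2.18) and Rapgef3 (-2.17) were lower. Pdgfb (-1.33) was lower too, but its glucagon libraries, at 94.6, 105 and 72.3, lay between those with cAMP and those with vehicle. Egr1 had 274, 212 and 245 with cAMP, against 270, 283 and 252 with glucagon, which overlap (-0.14, limma adjusted p = 0.54).

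**Figure D4:**
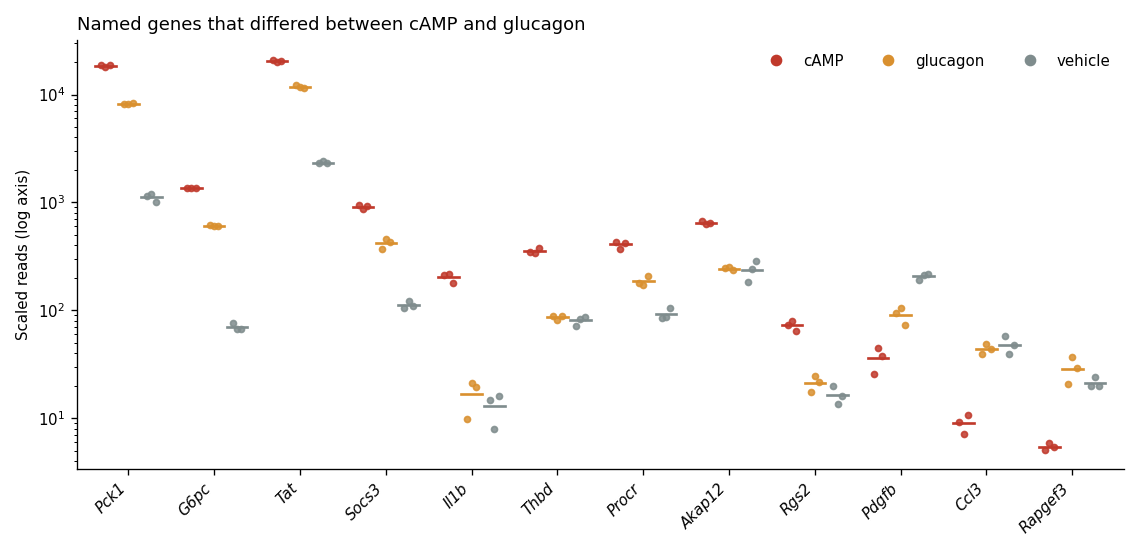
Scaled reads (log axis) of 12 named genes in the 3 cAMP (red), 3 glucagon (gold) and 3 vehicle (grey) libraries, with bars at the means. For Pck1, G6pc, Tat and Socs3 the glucagon libraries lie between the others, whereas for Il1b, Thbd, Akap12 and Ccl3 they lie close to vehicle.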

How the data were processed

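RNA of primary hepatocytes was sequenced as single reads of 50 bases from TruSeq libraries. Per the submitters' processing notes, the authors used TopHat 1.3.2, Cufflinks 2.0.2 and the mouse build mm10. The deposited table used here holds a signal per gene, the estimated reads of Cufflinks multiplied by a factor for each library (scaled reads), with 27 entries whose symbols had turned into dates. A second deposited table holds FPKM and served as an alternative. Depth before scaling was not used. Vehicle columns match their group but no single sample, and are called a, b and c. One description field conflicts with the titles and treatments, which were followed.

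The design named a count test for counts, and as the deposited signal holds fractions its place was taken by the limma package (version 3.58.1, under R 4.3.3), with a robust variance trend on log2(scaled reads + 1) of the 6 libraries, Benjamini-Hochberg adjustment over 12703 genes and a threshold of 0.05. The fit was tested on simulated data with independent errors, which lack a length trend like that of vehicle library a. The pseudocount of 1 understates changes of low genes. Named genes are the 15 largest rises and falls (called, no overlap, mean of at least 100 in the higher group, no predicted or unnamed entries), up to 4 called members of each list by size of change, and genes of the pathway's main roles whatever their values. The members and lists were chosen with earlier results of these data known. Chromosomes, gene spans and promoters are those of RefSeq, GRCm38.p6. Alternatives changed the libraries fitted, pseudocount, filter, scaling, table and length trend, or left out each library. A few of the named genes are not reported here.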

Additional observations from a re-analysis of the deposited data

How the results depend on the processing

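The 2042 genes called were 2013 to 2192 with a pseudocount of 0.5 or 5, without the filter on low values, with scaling by library size or upper quartile, or with the FPKM table. Counts were larger in 3 other fits, and the cause was not tested: with all 15 libraries in the fit 3272 genes were called (1648 higher, 1624 lower), with correction of each library for a trend on transcript length 3204 (1624 higher, 1580 lower), and, chosen after seeing the data, without vehicle library a and with the 14 others 3668 (1806 higher, 1862 lower). That last fit also called 491 genes of the lists, 304 of them higher, against 298 and 166. Leaving out 1 library at a time gave 1256 to 3019 genes (624 to 1447 higher and 632 to 1572 lower), the lowest without cAMP library 1 and the highest without vehicle library a, and 234 to 421 genes of the lists (123 to 254 higher and 110 to 167 lower). Of the 2042 genes, 1246 to 1985 were also called in these fits, all in the same direction. With the length correction, calls rose by over 1.5 times in the lists of gluconeogenesis (13 higher, 1 lower), clotting (10, 4), autophagy (13, 2), insulin (9, 4), amino acid transport (7, 5), CREB and CRTC (7, 4), fatty acid synthesis (10, 1), glycolytic control (2, 5) and hepatocyte markers (5, 0). Genes without overlap numbered 4302 to 4610 with other scaling or FPKM, with 1689 higher and 2766 lower under library size. No named gene that was called changed sign. The median of 10 stellate cell markers, 0.06, was -0.18 without vehicle library a. Of 146 named genes, 53 to 73 differed from glucagon without 1 library, against 75. For cAMP against vehicle no replicate block was fitted, because the vehicle columns match their group but no numbered sample. For cAMP against glucagon a replicate block on the numbers of the titles, chosen after seeing the data, gave 61 of the named genes, all among the 75, and 393 genes in all against 580; Ppargc1a was among the 14 not called (limma adjusted p = 0.053). Whether the numbers pair these libraries is not settled. Deviations from the group means correlated at -0.10, -0.05 and 0.13 across genes for libraries 1, 2 and 3, and only library 3 correlated best with its own number. With so few libraries per group such correlations cannot decide it. Mup1, Mup9 and Mup12, given below, were above 0 in library 2 alone of each of the 2 groups. The planned count test was not run, because the deposited signal is scaled and holds fractions, and counts before scaling were not used. Depth limits genes of a few scaled reads, such as Rapgef3, Ptger4 and Pde3a.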

Other observations

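Outside the genes named by rule, several genes of low level rose strongly, and they are given here after their values were seen. Ramp3, a partner protein that changes the ligands of calcitonin-family receptors, had 61.1, 48.3 and 67.1 scaled reads with cAMP, against 0, 2.39 and 1.90 with vehicle (4.79, limma adjusted p = 7.3e-05), and 1.09, 5.55 and 3.10 with glucagon. Nppc, the precursor of C-type natriuretic peptide, had 37.7, 47.1 and 42.0 with cAMP, against 1.05, 0 and 0.95 with vehicle, and 40.2, 46.6 and 37.2 with glucagon. Nefl, a neurofilament gene, had 58.1, 58.9 and 53.7 with cAMP, against 1.05, 0.80 and 1.90 with vehicle. Cemip, which takes part in hyaluronan breakdown, had 84.5, 76.6 and 106 with cAMP, against 1.05, 4.78 and 4.75 with vehicle.

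Major urinary protein genes, which are near-identical copies, held values of another kind. Mup1 was listed at 1877 scaled reads in cAMP library 2 and at 0 in the other 2 cAMP and all 3 vehicle libraries, and Mup9 (498) and Mup12 (379) were above 0 in that library alone of the 6. Glucagon library 2 showed the same, with Mup1 at 1812, Mup9 at 459 and Mup12 at 317, all 3 at 0 in the other 2 glucagon libraries. Mup8 was listed at 68.2, 63.6 and 51.9 with cAMP and at 0 in every vehicle library, and was called, and with glucagon it was listed at 70.7, 68.8 and 60.9. These values are uncertain.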
